A study of Mus musculus with 4 samples.

Results

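The adenylyl cyclases and the phosphodiesterases, the enzymes that make and break down cyclic nucleotides, were measured in single nuclei of mouse brain before and after an ischemic lesion. All genes of the deposited tables whose symbol begins with Adcy or Pde followed by a digit were taken, and symbols with os, as or ps endings were left out. This gave 36 members of 46983 genes, of which 10 were Adcy genes and 26 were Pde genes. Catalytic enzymes accounted for 31 of them. The other 5 share the name but not the role. Pde4dip codes for the scaffold protein myomegalin, Pde6d for a chaperone of lipid-modified proteins, Pde6g and Pde6h for inhibitory subunits of the photoreceptor enzyme, and Pde12 for a mitochondrial enzyme that acts on RNA. Another annotated gene lay within the span of 24 members. The counting settings that the authors list name no strand option, so whether opposite-strand pairs were told apart is not stated. Among pairs of protein-coding genes of this kind, Pde2a and Arap1 lie on the same strand. The pairs of Adcy3 with Cenpo, Pde12 with Arf4 and Pde6h with Arhgdib lie on opposite strands.

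Adenylyl cyclases convert ATP to cyclic AMP (cAMP) under the control of G proteins and, for some of them, of calcium. Phosphodiesterases hydrolyze cAMP, cyclic GMP (cGMP) or both, and so set how far and how long a signal spreads. In the striatum, Adcy5 carries dopamine and adenosine signals to protein kinase A, and Pde10a and Pde1b break down the product. In immune cells, adipocytes and elsewhere, Pde3b and the Pde4 enzymes restrain the actions of cAMP.

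The samples were forebrain hemispheres of male C57Black/6 mice aged 3 months, from a sham control and from mice 1, 3 and 7 days after permanent MCAO, a stroke model in which the middle cerebral artery is coagulated and cut. Each group was 1 library, made from 3 hemispheres that were pooled while nuclei were isolated, so no difference below had a replicate check and no test was possible. Intervals cover counting error and nothing else. The surgery text of the labels gives intact cortex as the control tissue, the design text gives forebrain hemispheres for every time point. Striatal projection neuron-like nuclei, 356 of them, were present in the sham library. The numbers of nuclei that the study lists per day match these libraries only if the labels of days 3 and 7 are swapped. Whether labels were exchanged was not tested, and all values below follow the labels as deposited.

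Between 23285489 and 42963698 unique molecular identifiers (UMIs, counted transcripts) were deposited per library. After calling nuclei and removing doublets, 7760 nuclei were kept. In the order sham, day 1, day 3 and day 7, which is the order of every row of 4 values below, these were 2114, 1018, 3061 and 1567 nuclei. Called nuclei held a median of 11029.5 UMIs at day 1 and of 5463 to 7060.0 UMIs in the other libraries. Any pair of libraries shared between 0 and 3 barcodes. Clusters were named from RNA markers alone, with every member left out of the clustering genes, and 7188 nuclei fell in the 11 classes used here. They were glutamatergic neuron-like (544, 279, 872 and 417 nuclei), striatal projection neuron-like (356, 133, 372 and 199), interneuron-like (125, 64, 161 and 96), astrocyte-like (146, 57, 213 and 70), oligodendrocyte-like (323, 160, 431 and 255), oligodendrocyte precursor-like (60, 35, 100 and 47), microglia-like (93, 48, 191 and 96), endothelial-like (41, 6, 70 and 21) and fibroblast-like (28, 11, 48 and 18). Among other neurons, 1 class was marked by Baiap3 and Zim1 (243, 119, 290 and 180) and 1, named for Slc17a6, by Ntng1, Lef1 and Prkcd (37, 25, 58 and 50). A further 387 nuclei in 3 clusters stayed unnamed. A level is a gene's UMIs per 1000000 UMIs of the summed class (CPM), with an exact 95% Poisson interval.

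Most of the signal came from few members. Over all kept nuclei, Pde4d, a cAMP-specific phosphodiesterase, held 85778 UMIs or 18.4% of those of the family, Pde10a, which hydrolyzes cAMP and cGMP, held 78392, and Pde4b, also cAMP-specific, held 76425. Together these 3 genes gave 51.5% of all member UMIs. They are also long genes, and nuclear reads include introns. Pde4d spans 1504 kb, Pde4b 520 kb and Pde10a 461 kb. At the other end, Adcy4 had 88 UMIs, Pde4c 58, and the photoreceptor genes Pde6b, Pde6c and Pde6g had 52, 52 and 30. In the sham control, 27 members reached 20 UMIs in their highest class and 9 did not reach 20 in any class. For 16 of the 27, the interval of the ratio to the next class lay above 1, so the highest class could be named.

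**Figure D1:**
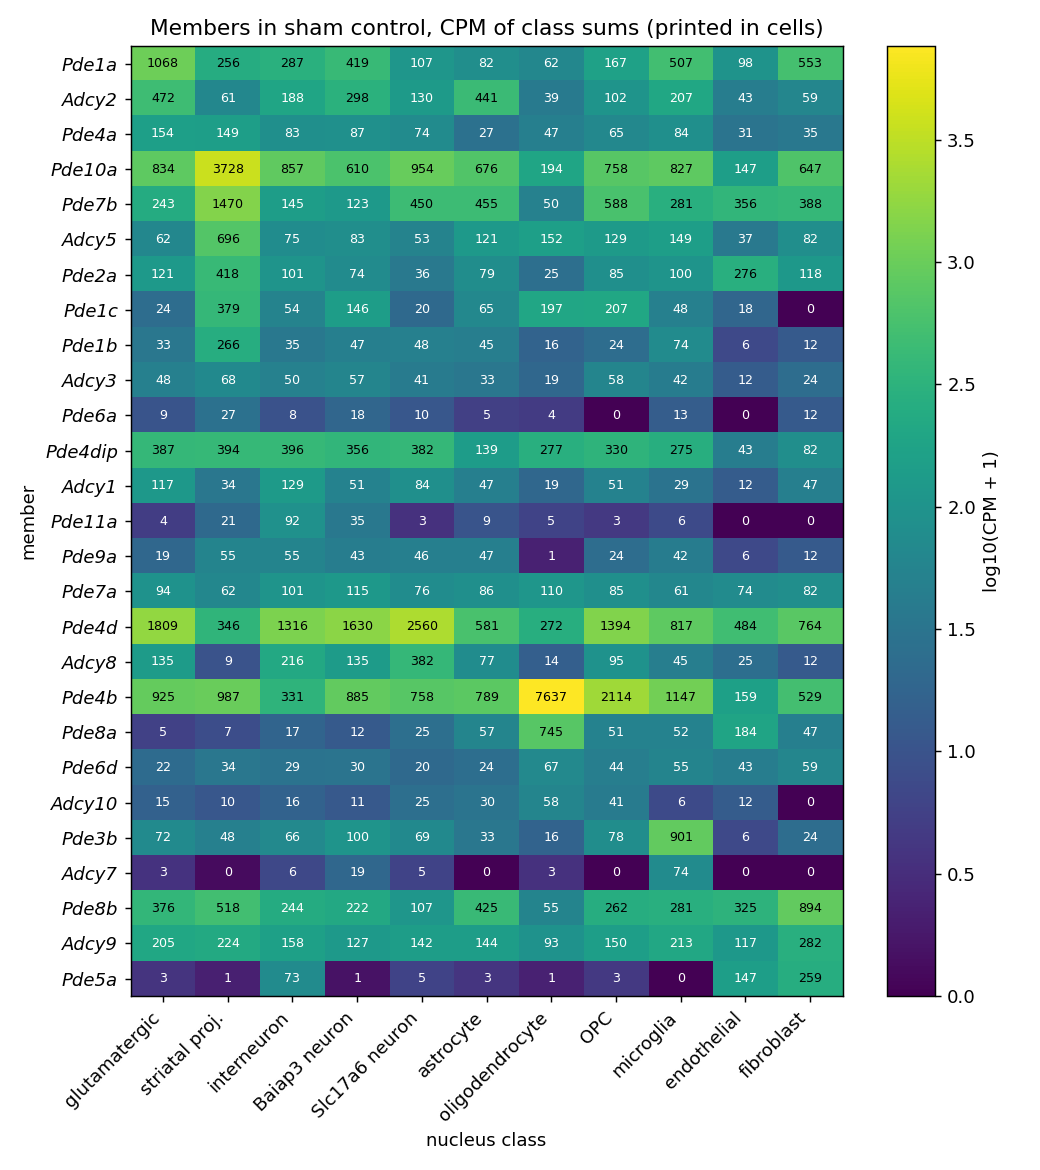
CPM of the members with at least 20 UMIs in their highest class in the sham control (rows) in the 11 nucleus classes (columns). Color gives log10(CPM + 1) and the printed number the CPM. Pde4b in oligodendrocyte-like nuclei (7637) and Pde10a in striatal projection neuron-like nuclei (3728) are the brightest cells.

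The sum of the catalytic Pde members was highest in oligodendrocyte-like nuclei, at 9478 CPM in the sham control, and next in striatal projection neuron-like nuclei, at 8744 CPM. The Adcy sum was ordered otherwise. It was 403 CPM in the oligodendrocyte-like class, against 1105 in the striatal and 1071 in the glutamatergic class. Scaled to gene span, the highest member was Pde1a in the glutamatergic class (3.62 CPM per kb), Pde1b in the striatal class (9.84, with Pde10a at 8.08), Pde4dip in the interneuron class (1.99), Pde4a in the Baiap3 class (1.83), and Pde10a in the Slc17a6 class (2.07). In glia and vessels it was Pde8b in the astrocyte class (1.88), Pde4b in the oligodendrocyte (14.7) and precursor (4.07) classes, Pde3b in the microglia class (7.27), Adcy4 in the endothelial class (4.89, from 12 UMIs) and Pde8b in the fibroblast class (3.96). Per kb of exon, the same member led in the glutamatergic, oligodendrocyte, precursor and fibroblast classes, while Pde10a led in the striatal class (290.2 CPM per exon kb), Pde4d in the interneuron, Baiap3 and Slc17a6 classes, Adcy2 in the astrocyte class, Pde4b in the microglia class and Pde2a in the endothelial class.

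In the sham control, 9 members stood at least 2 times above the next class. Of these, 4 were led by striatal projection neuron-like nuclei, 2 by oligodendrocyte-like nuclei, 2 by microglia-like nuclei and 1 by interneuron-like nuclei. For 8 of the 9 the same class was highest in all 4 libraries.

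Pde10a, the main striatal phosphodiesterase, measured 3728 (3664 to 3793), 2681 (2611 to 2752), 4029 (3960.2 to 4099) and 3823 (3739 to 3909) CPM in striatal projection neuron-like nuclei. The day 1 library was the low one, and its interval did not overlap those of the other 3. The day 1 level was 0.72 of sham (log2 ratio -0.48, interval -0.52 to -0.43), below the size of 1.5-fold used for calls. The next class, Slc17a6 neurons, held 954 CPM in sham, so Pde10a was 3.91 times higher in the striatal class (3.53 to 4.34), 2.30 times at day 1, 3.13 at day 3 and 2.61 at day 7.

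Pde7b, which is specific for cAMP, followed the same course in the striatal class, with 1470.3 CPM in sham, 1109 at day 1, 1731 at day 3 and 1550.4 at day 7. Adcy5, the main striatal adenylyl cyclase, measured 696, 576, 802 and 741 CPM. For both genes the interval at day 1 lay below that of every other library, with log2 ratios to sham of -0.41 (-0.48 to -0.34) and -0.27 (-0.38 to -0.17). The summed CPM of the 15 markers of the striatal class was also lowest at day 1, at 4871 against 5564 in sham, 5628 at day 3 and 5621 at day 7, and nuclei of that library were deeper (median 12912 UMIs in the striatal class, against 7262.5 to 8872). The part of either in the lower values was not tested. Pde1b, a phosphodiesterase activated by calcium and calmodulin, measured 266 CPM in sham, 236 at day 1, 268 at day 3 and 255 at day 7, with overlapping intervals, and exceeded the next class by 3.58 times (2.37 to 5.67) in sham.

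Of the members with at least 20 UMIs there, 4 others were highest in the striatal class of sham without reaching 2 times the next one. Pde2a, which cGMP activates and whose span overlaps Arap1, stood at 418, 349, 420.2 and 456 CPM, 1.51 times (1.13 to 2.09) the endothelial-like class in sham. Pde1c, a further enzyme activated by calmodulin, stood at 379, 453, 419 and 373 CPM, 1.83 times (1.42 to 2.41) the precursor class. Pde6a, a photoreceptor subunit, stood at 27.2, 39.02, 23.2 and 13.3 CPM, 1.53 times (1.02 to 2.34) the Baiap3 class in sham, and Adcy3, whose span overlaps Cenpo, at 68.1, 52.03, 60.1 and 63.4 CPM, which did not differ from the precursor class in sham beyond counting error (ratio 1.18, 0.72 to 2.06). Pde4d, in contrast, was at its lowest among neurons here, at 346 CPM in sham and 473, 340.3 and 380 CPM on days 1, 3 and 7, against 1809 CPM in the glutamatergic class of sham.

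**Figure D2:**
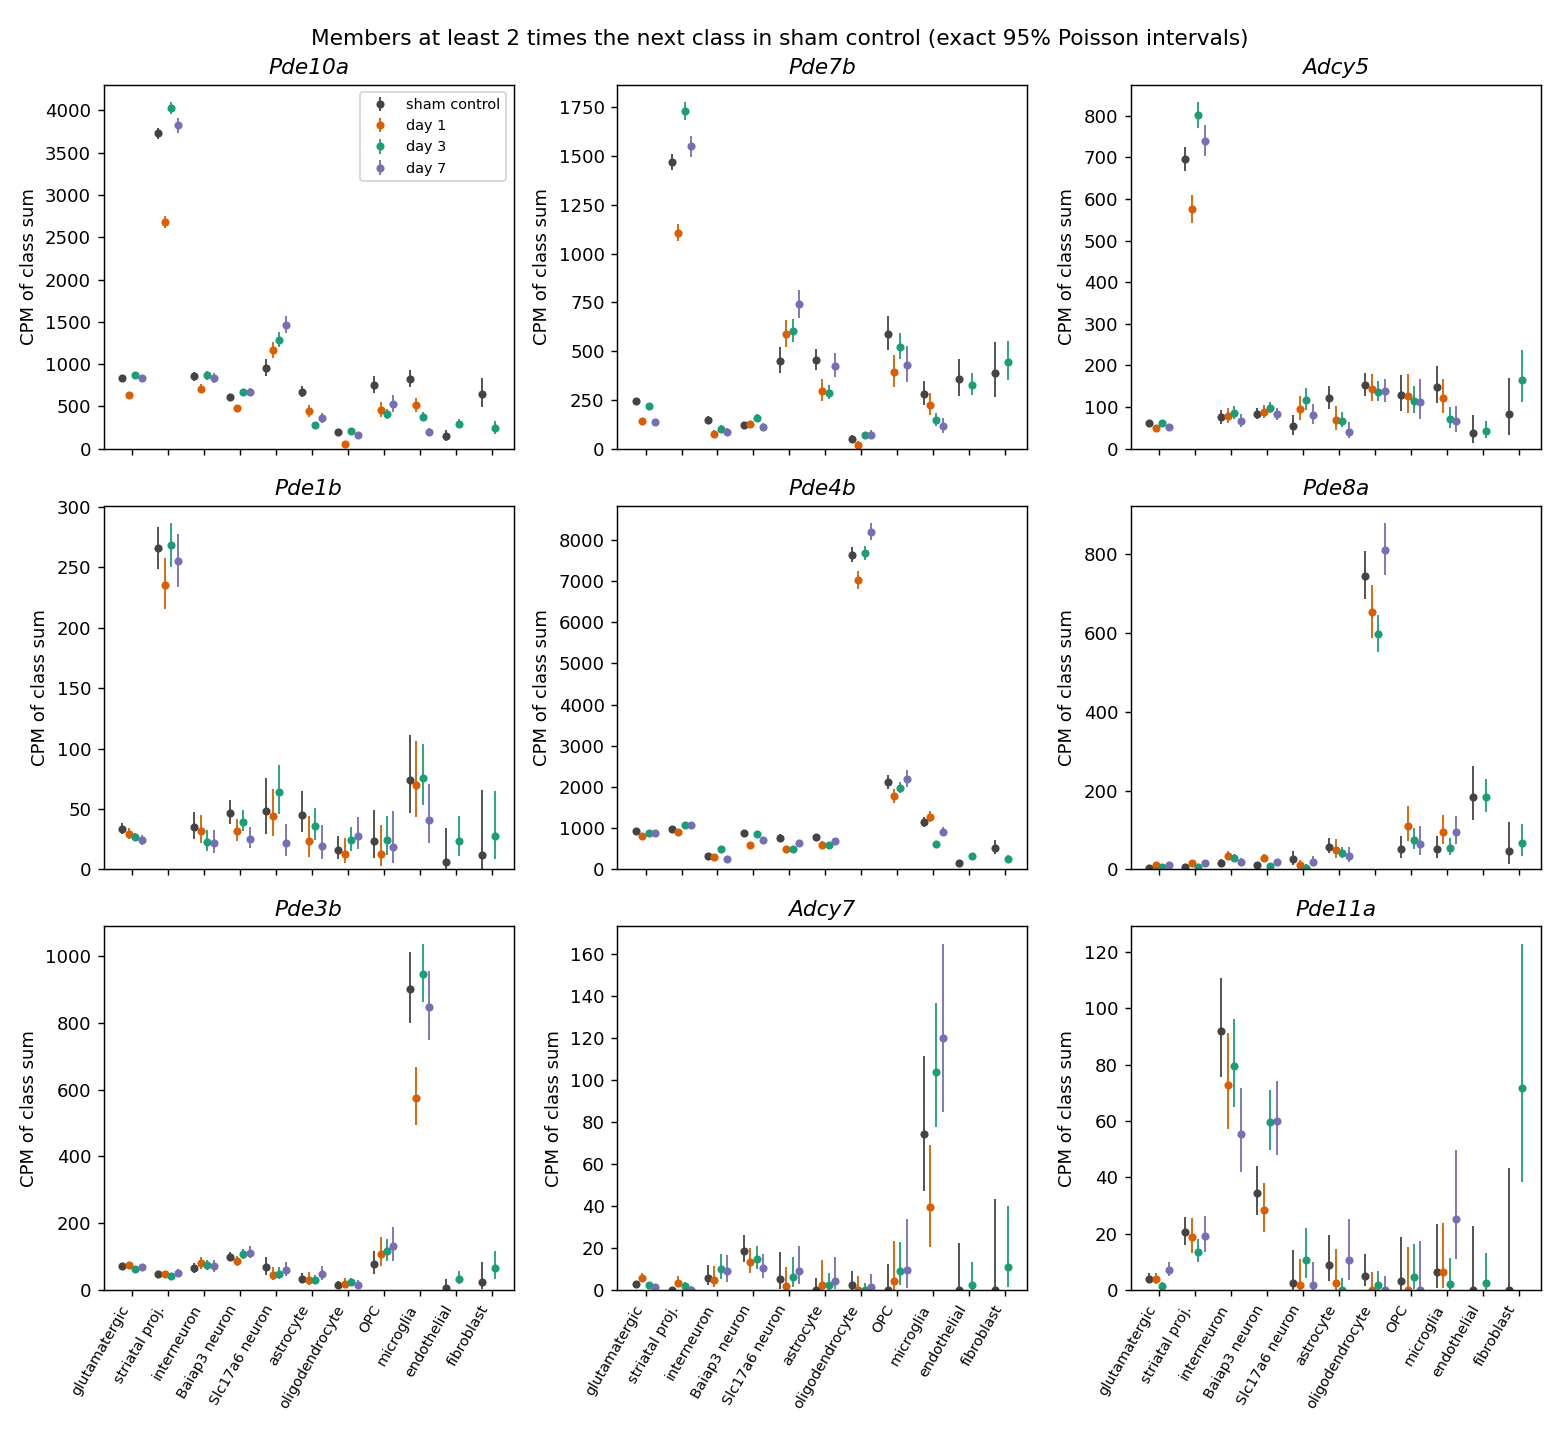
CPM (vertical axis, starting at 0) of the 9 members at least 2 times above the next class in the sham control, in each nucleus class with at least 25 nuclei (horizontal axis). Colors are the 4 libraries and bars the exact 95% Poisson intervals. The striatal class is highest in all 4 libraries for Pde10a, Pde7b, Adcy5 and Pde1b, and the oligodendrocyte class for Pde4b and Pde8a.

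Striatal projection neurons fall into direct pathway cells, which carry Drd1, and indirect pathway cells, which carry Drd2 and Adora2a. Nuclei of the class were split by whichever marker list led by at least 3 UMIs, which gave 110 direct and 143 indirect nuclei in sham, 58 and 56 at day 1, 112 and 132 at day 3, and 63 and 81 at day 7. The remaining 103, 19, 128 and 55 nuclei lay nearer the border and were left out. Neither marker list held a member. Pde4b measured 705 CPM in direct and 1303 CPM in indirect nuclei of sham, 613 and 1279 at day 1, 649 and 1636 at day 3, and 733 and 1535 at day 7. It was lower in direct nuclei of every library, with log2 ratios of -0.89 (-1.01 to -0.77), -1.06, -1.33 and -1.07.

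Pde4d differed in the same direction, at 276 CPM in direct and 418 CPM in indirect nuclei of sham, 327 and 615 at day 1, 139 and 449 at day 3, and 168 and 533 at day 7. The log2 ratio was -0.60 (-0.80 to -0.40) in sham, -0.91 at day 1, -1.69 (-1.95 to -1.43) at day 3 and -1.66 (-1.96 to -1.38) at day 7, so that the intervals at days 3 and 7 lay beyond that of sham. Median depth of direct and indirect nuclei was 8793.5 and 9239 UMIs in sham, 12565.5 and 14894 at day 1, 8722 and 7664.5 at day 3, and 10488 and 8848 at day 7. The part of depth, on which a split by UMIs also depends, was not tested. The striatal enzymes differed little between the subclasses. Log2 ratios of direct over indirect nuclei lay between -0.03 and 0.11 for Adcy5 and -0.06 and 0.10 for Pde1b, and every interval included 0. For Pde10a they were -0.06 (-0.12 to -0.01), -0.04, 0.12 (0.07 to 0.18) and -0.16 (-0.23 to -0.09), so the sign turned between libraries with intervals that left out 0. For Pde7b they were 0.05, -0.15 (-0.27 to -0.02), -0.13 (-0.21 to -0.04) and -0.07. The ratio of Pde1c changed sign between libraries, from 0.21 (0.02 to 0.40) in sham to -0.63 (-0.83 to -0.42) at day 1, -0.29 at day 3 and -0.37 at day 7.

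**Figure D3:**
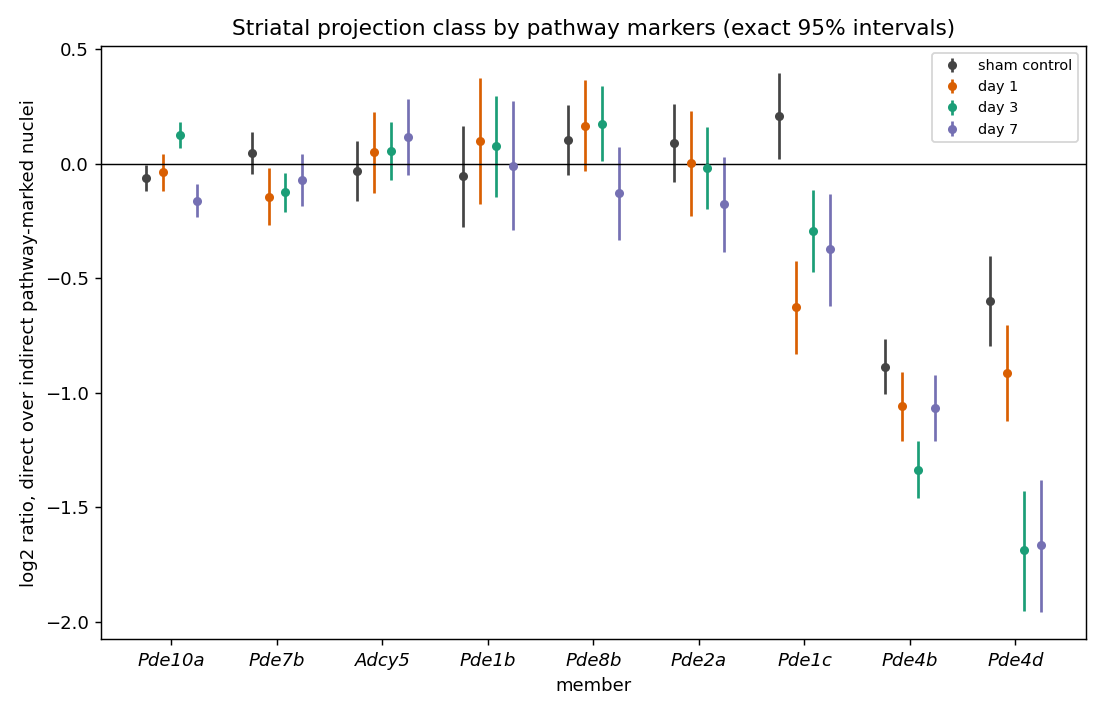
Log2 ratio of CPM in direct over indirect pathway-marked nuclei of the striatal class (vertical axis) for 9 members (horizontal axis), by library (color), with exact 95% conditional intervals. Pde4b and Pde4d lie below 0 in all 4 libraries, while Pde10a, Adcy5 and Pde1b lie near 0.

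In oligodendrocyte-like nuclei, Pde4b reached the highest level of any member in any class. It measured 7637 (7446 to 7832), 7007 (6790.0 to 7230.2), 7672 (7505 to 7843) and 8195 (7987 to 8407) CPM. The day 1 interval lay below and the day 7 interval above that of sham, with log2 ratios of -0.12 and 0.10. Oligodendrocyte precursor-like nuclei came next, with 2114 CPM in sham, and the ratio between these classes was 3.61 (3.33 to 3.93) in sham, 3.96 at day 1, 3.88 at day 3 and 3.73 at day 7. Pde8a, a cAMP-specific enzyme with high affinity, measured 745 CPM in sham, 652 at day 1, 597 at day 3 and 810 at day 7. Its sham level was 4.05 times (2.81 to 6.05) that of the endothelial-like class, and its day 3 level had a log2 ratio to sham of -0.32 (-0.48 to -0.15).

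Pde3b, which cGMP inhibits, was the member that stood furthest above the next class in microglia-like nuclei of sham. It measured 901 (799 to 1013), 576 (493 to 668), 946 (862 to 1037) and 847 (749 to 955) CPM. Day 1 was the low library, and its interval did not overlap the others. Microglia-like nuclei of that library were also deeper (median 4130.5 UMIs against 1827 in sham), and among nuclei with at least 2000 UMIs the log2 ratio of day 1 to sham was -0.12, under the size of 1.5-fold. The next class in sham, Baiap3 neurons, held 100.1 CPM, a ratio of 9.003 (7.46 to 10.9). On the other days the next class was precursor-like nuclei, with ratios of 5.27 at day 1, 8.09 at day 3 and 6.45 at day 7. In sham a Pde3b UMI was found in 87.1% of microglia-like nuclei (median depth 1827 UMIs) and in 3.41% of oligodendrocyte-like nuclei (median depth 2027 UMIs), taken as the background class. Free RNA was expected to make up 9.22% and 12.5% of the UMIs of these classes. Adcy7, the cyclase of blood and immune cells, was also led by microglia-like nuclei, at 74.3 (47.1 to 111), 39.7 (20.5 to 69.3), 104 (77.5 to 137) and 120.2 (85.0 to 165) CPM. These rest on 23, 12, 51 and 38 UMIs. The interval of sham overlapped that of every other library, while that of day 1 lay below those of days 3 and 7.

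Promoter sequences in RefSeq (GRCm38.p6) were searched for the cAMP response element, the site of CREB, on both strands. A window of 300 bases, from 250 before to 50 after a start site, was at hand for 27 of the 36 members, 52 windows in all. The palindrome TGACGTCA was found in 0 of the 52, and in 1.79% of all 32851 promoter windows. Its shorter form, TGACG or on the other strand CGTCA, which the palindrome also contains, was found in 9 of the 52 (17.3%) and in 20.8% of all. A match is a description of letters and not of binding. The 120 bases before the start are shown for the 3 class-led members with such a match, with the matching letters in capitals. Adcy7 and Pde4b have several starts, and for them the window with the match is shown.
Adcy7, chr8:88282872-88282991, + strand: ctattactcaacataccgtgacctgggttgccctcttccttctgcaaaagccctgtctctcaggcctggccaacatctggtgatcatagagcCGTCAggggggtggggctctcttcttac
Pde4b, chr4:102421435-102421554, + strand: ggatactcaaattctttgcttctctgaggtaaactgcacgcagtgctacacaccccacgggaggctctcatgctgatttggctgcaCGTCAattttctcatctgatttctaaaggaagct
Pde8a, chr7:81213145-81213264, + strand: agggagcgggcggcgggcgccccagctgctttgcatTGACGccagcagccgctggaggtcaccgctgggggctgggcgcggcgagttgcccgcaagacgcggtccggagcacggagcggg

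The remaining class-led member was Pde11a, which hydrolyzes cAMP and cGMP. In interneuron-like nuclei it measured 91.8 (75.5 to 111), 72.9 (57.3 to 91.4), 79.5 (64.9 to 96.3) and 55.3 (41.8 to 71.9) CPM. Its interval at day 7 did not reach that of sham. The sham level was 2.66 times (1.94 to 3.66) that of Baiap3 neurons. In Baiap3 neurons it measured 34.6, 28.3, 59.7 and 60.01 CPM, so at day 7 the classes did not differ beyond counting error (ratio 1.08, 0.77 to 1.55).

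Other members had a highest class without standing 2 times above the next in sham. Pde1a, activated by calmodulin, measured 1068 CPM in glutamatergic neuron-like nuclei of sham, 975 at day 1, 1125 at day 3 and 1136 at day 7. The next class was fibroblast-like in sham (ratio 1.93), precursor-like at day 1 (1.64) and Baiap3 neurons at days 3 and 7 (2.19 and 2.35). Fibroblast-like nuclei were too few to be ranked at days 1 and 7, so these ratios are not a course over time. Within the glutamatergic class of sham Pde1a ranged from 320 CPM in a cluster led by Rorb to 1897 CPM in a cluster led by Rai14 and Hs3st4, where Pde4d was also highest, at 3823 CPM. Pde4d was highest in Slc17a6 neurons in all 4 libraries (2560 CPM in sham, 2235 at day 1, 2453 at day 3 and 2516 at day 7). It stood at 1.30 to 1.41 times the next class, which was Baiap3 neurons at day 1 and the glutamatergic class otherwise. Adcy8, a cyclase stimulated by calcium, was highest in the same class in all 4 libraries, at 382, 307, 279.7 and 438 CPM, 1.76 times (1.43 to 2.17) the interneuron class in sham.

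Adcy2 was shared by glutamatergic neuron-like nuclei (472 CPM in sham) and astrocyte-like nuclei (441 CPM), which did not differ beyond counting error (ratio 1.07, 0.95 to 1.21). Adcy1, another cyclase that calcium stimulates, was also alike in its highest classes, interneurons (129 CPM) and glutamatergic neurons (117 CPM). In vessels and meninges, member counts were low. Adcy4 had 12 UMIs in endothelial-like nuclei of sham, where the next class held 1 UMI, and it had 40 UMIs there at day 3. Pde5a, which hydrolyzes cGMP and is the target of sildenafil, measured 259 CPM in fibroblast-like nuclei (22 UMIs), 147 in endothelial-like nuclei (24 UMIs) and 73.5 in interneuron-like nuclei (88 UMIs). In sham the fibroblast-like class held 4774 CPM of fibroblast, 4597 of astrocyte and 3139 of mural cell markers. The endothelial-like class held 19523 CPM of endothelial, 5880 of mural cell and 3360 of astrocyte markers. The part of other cells in the levels of these classes was not tested. Pde8b, a cAMP-specific enzyme, was highest in fibroblast-like nuclei of sham, at 894 CPM against 518 in the striatal class (ratio 1.73, 1.35 to 2.17), but at day 3 these classes did not differ beyond counting error (1.09, 0.88 to 1.33).

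Changes after injury were read within a class, as the CPM of a library over that of sham. A gene was called where it differed by 1.5-fold or more and had at least 100 UMIs over both sums, in classes with at least 25 nuclei in both libraries. This allowed 29 comparisons of a class and a day. At least 1 of them could be made for 28 of the 36 members, and 17 members were called somewhere. Of 425 member comparisons, 20 were called higher and 45 lower (15.3%), while 7.01% of all 111688 gene comparisons were called, from 3.43% to 36.4% by class and day. The exact conditional interval left out a ratio of 1 for 64 of these 65 calls and lay wholly past 1.5-fold for 16. Adcy3, Adcy6, Adcy8, Adcy9, Pde2a, Pde4a, Pde4dip, Pde6d, Pde7a, Pde8a and Pde9a were compared and not called in any of these comparisons. Member counts by class and day stand below beside the share of all genes called under the same rule. All 3 days of a class share the sham library, so calls on several days are not independent.

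**Figure D4:**
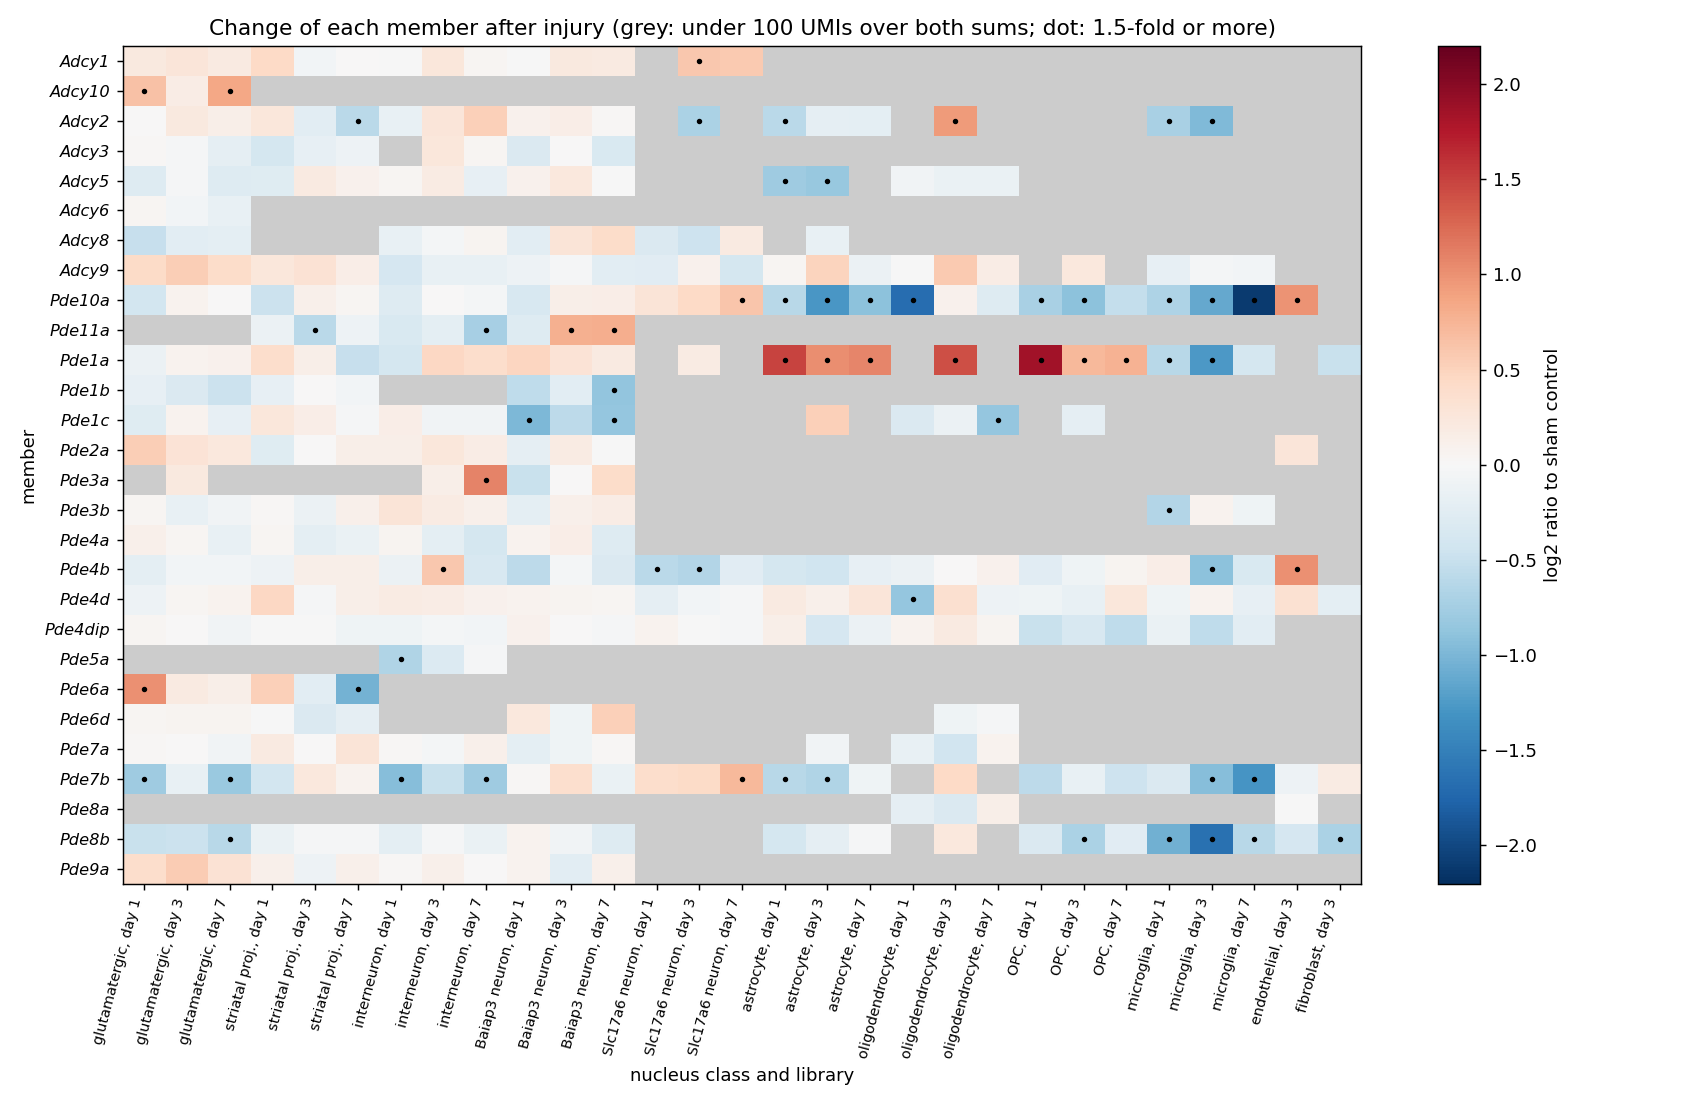
Log2 ratio of each post-injury library to the sham control (color, red higher and blue lower) for 28 members (rows) in each class and day (columns). Grey marks comparisons under 100 UMIs and a dot marks 1.5-fold or more. Microglia-like nuclei show lower calls only, while the columns of striatal projection neuron-like nuclei hold 3 dots in all.

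In the glutamatergic class, 3 of 24 members were called at day 1 (12.5%, against 5.57% of all genes), 0 of 25 at day 3 (against 3.56%) and 3 of 24 at day 7 (12.5%, against 6.36%). Pde7b measured 243 CPM in sham, 142 at day 1, 217 at day 3 and 138 at day 7, so days 1 and 7 were low. Its log2 ratio was -0.77 (-0.90 to -0.65) at day 1 and -0.81 (-0.94 to -0.69) at day 7. In sham its level ranged from 122 to 578 CPM across the clusters of the class, and with clusters weighted as in sham the log2 ratios were -0.77 and -0.58. The 15 striatal markers summed to 957, 739, 878 and 792 CPM in this class and the 5 indirect pathway markers to 44.9, 18.1, 28.7 and 19.9 CPM, lowest on the same days, and their part in the lower values was not tested. Pde8b measured 376 CPM in sham and 267, 272 and 247 CPM on days 1, 3 and 7, past the size of a call at day 7 (-0.61, -0.71 to -0.51, and -0.48 with clusters weighted as in sham). Higher calls went to low members. Adcy10, the soluble cyclase that bicarbonate activates, had 14.8, 23.1, 16.7 and 26.6 CPM, with log2 ratios of 0.64 at day 1 and 0.85 (0.46 to 1.24) at day 7. Pde6a had 9.23, 18.5, 10.6 and 10.1 CPM, with a log2 ratio of 1.00 (0.52 to 1.50) at day 1. Day 1 nuclei were the deepest of the class (median 16519 UMIs against 9070.0 to 11143). With every nucleus thinned to 1000 UMIs, Pde6a stood at 1.96 and Adcy10 at -0.77 on day 1. Thinning left too few UMIs of members at these levels for either value to show the part of depth, which was not tested.

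The striatal class held 0 calls of 22 members at day 1 (5.27% of all genes), 1 of 22 at day 3 (3.5%) and 2 of 22 at day 7 (4.87%). Pde11a was lower at day 3 (20.6 against 13.6 CPM, log2 ratio -0.60), Adcy2 at day 7 (61.2 against 40.8 CPM, -0.59) and Pde6a at day 7 (27.2 against 13.3 CPM, -1.04, -1.71 to -0.41). The first pair lay at the size of a call, and with the mean of nuclei Pde11a stood at -0.55 and Adcy2 at -0.10, which turned to 0.58 with nuclei thinned to 1000 UMIs. The interneuron class held 2 calls of 20 at day 1 (5.1%), 1 of 22 at day 3 (4.95%) and 3 of 22 at day 7 (6.12%). Pde7b was lower at days 1 and 7, with 145 CPM in sham, 75.8 at day 1 and 84.0 at day 7 (-0.94, -1.34 to -0.54, and -0.79, -1.18 to -0.41). The day 1 value was -0.57 with libraries merged, -0.45 with the mean of nuclei and 0.16 with thinned nuclei. Pde5a was lower at day 1 (-0.66) and Pde11a at day 7 (-0.73), while Pde4b was higher at day 3 (331, 301, 499 and 258 CPM, 0.59). Oligodendrocyte markers summed to 298, 225, 507 and 174 CPM in the class, also highest at day 3, and their part was not tested. Pde3a, the enzyme of platelets and heart that cGMP inhibits, was higher at day 7, at 84.0 against 39.2 CPM in sham (1.10, 0.57 to 1.64). Fibroblast markers summed to 6.68, 9.72, 21.4 and 70.2 CPM in the interneuron class and glutamatergic markers to 1105, 1164, 773 and 665 CPM. The part of these in the day 7 values was not tested. Without the nucleus holding most of the gene's UMIs in each sum, the log2 ratio at day 7 was 0.53 for Pde3a and -0.44 for Pde7b, and that of Pde4b at day 3 was 0.43. With clusters weighted as in sham, Pde11a stood at -0.23 on day 7, Pde5a at -0.56 on day 1 and Pde4b at 0.46 on day 3.

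Among the other neurons, Baiap3 neurons held 1 call of 23 at day 1 (3.43%), 1 of 23 at day 3 (3.48%) and 3 of 23 at day 7 (5.25%). Pde1c measured 146 CPM in sham, 73.7 at day 1, 97.4 at day 3 and 80.7 at day 7, and all 3 injured libraries had intervals below that of sham. The log2 ratio was -0.98 (-1.31 to -0.67) at day 1 and -0.85 (-1.18 to -0.54) at day 7. With thinned nuclei the day 1 value was -0.34. The day 7 value lay under 1.5-fold with thinned nuclei and with libraries merged, with -0.43 as the smallest value. Pde11a was higher at day 3 (0.79, 0.34 to 1.24) and day 7 (0.80, 0.32 to 1.28), and Pde1b lower at day 7 (-0.87). Slc17a6 neurons, the smallest neuron class, held 1 call of 7 at day 1 (12.5%), 3 of 10 at day 3 (9.26%) and 2 of 8 at day 7 (10.5%). Pde10a measured 954 CPM in sham, 1166 at day 1, 1289 at day 3 and 1463 at day 7, the reverse of other neurons at day 1, and was called at day 7 (0.62, 0.44 to 0.80). Pde7b was also higher at day 7 (450.4 against 741 CPM, 0.72). Pde4b was lower at days 1 and 3 (758 CPM in sham, 500.4 and 485 CPM, -0.60 and -0.65), and Adcy2 was lower at day 3 (-0.69). The interval of Adcy1 at day 3 (0.59, -0.01 to 1.22) included a ratio of 1. Each call of this class fell under 1.5-fold in some alternative. The smallest values were 0.42 for Pde10a and 0.51 for Pde7b at day 7, and -0.37 for Pde4b at day 1. At day 3 they were -0.54 for Pde4b, -0.52 for Adcy2 and 0.58 for Adcy1. Striatal markers summed to 374, 446, 590 and 443 CPM in the class and oligodendrocyte markers to 257, 221, 271 and 438 CPM, and their part was not tested.

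In oligodendrocyte-like nuclei, 2 of 9 members were called at day 1 (13.8% of all genes), 2 of 14 at day 3 (8.91%) and 1 of 10 at day 7 (8.46%). Pde10a was lower at day 1, at 60.7 against 194 CPM in sham, with 207 at day 3 and 159 at day 7 (-1.68, -2.26 to -1.13). Nuclei that held neuronal markers, as defined for astrocytes below, carried 35.7% of these UMIs in sham and 2.94% at day 1, and without them the log2 ratio was -1.14. Precursor markers summed to 365, 143, 518 and 819 CPM in the class and striatal markers to 733, 534, 724 and 654 CPM, both lowest at day 1, and their part was not tested. Pde4d was lower at day 1 (272 against 152 CPM, -0.84) and Pde1c at day 7 (197 against 109 CPM, -0.86, -1.27 to -0.46). Pde1a was higher at day 3 (61.7 against 164 CPM, 1.41), when 56 of its 171 UMIs lay in 1 nucleus, as was Adcy2 (39.1 against 74.96 CPM, 0.94). Nuclei that held neuronal markers carried 94 of the Pde1a UMIs at day 3 (55.0%, against 16.3% in sham), and without them the log2 ratio was 0.60. The precursor class held 2 calls of 7 at day 1 (15.5%), 3 of 9 at day 3 (11.2%) and 1 of 7 at day 7 (13.2%). Pde1a was higher there on all 3 days, at 167 CPM in sham and 596, 274 and 281 CPM after injury. At day 1, 69 of its 142 UMIs lay in 1 nucleus, and the log2 ratio was 1.84 with and 0.93 without the leading nucleus of each sum. At days 3 and 7 it was 0.72 and 0.76 with and 0.51 and 0.47 without these nuclei, under 1.5-fold. Oligodendrocyte markers summed to 1023, 1864, 1860 and 1717 CPM in the precursor class, neuroblast markers to 180, 189, 479 and 155 CPM, and fibroblast markers to 34.0, 8.39, 40.5 and 235 CPM. Their part in the changes of the class was not tested. Pde10a was lower at days 1 and 3 (-0.72 and -0.90) and Pde8b at day 3 (-0.69). Without the precursor nuclei that held neuronal markers, the log2 ratio of Pde10a was 0.01 on both days, and at day 3 that of Pde8b was -0.29 and that of Pde1a 0.36. The same exclusion added calls, of Pde4dip as lower in precursors at days 1 and 7 and of Pde10a as lower in oligodendrocyte-like nuclei at day 7.

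Astrocyte-like nuclei held 5 calls of 10 members at day 1 (13.1% of all genes), 4 of 13 at day 3 (9.55%) and 2 of 9 at day 7 (11.4%). Pde10a measured 676 CPM in sham, 443 at day 1, 278 at day 3 and 362 at day 7, with log2 ratios of -0.61, -1.28 (-1.51 to -1.05) and -0.90. Adcy5 was lower at days 1 and 3 (-0.79 and -0.84), Pde7b at days 1 and 3 (-0.61 and -0.66) and Adcy2 at day 1 (-0.59), all of them genes that neurons also carry. Striatal markers were lower in the same libraries. The summed CPM of the 15 striatal markers in astrocyte-like nuclei was 1696 in sham, 1231 at day 1, 1119.8 at day 3 and 1093 at day 7, whereas that of the 12 glutamatergic markers was 1409, 1351, 1467 and 1467. Microglia markers summed to 221, 272, 466 and 692 CPM and newly formed oligodendrocyte markers to 331, 368, 306 and 785 CPM, and mitochondrial UMIs made up 1.15%, 0.82%, 1.82% and 2.35%. The part of these in the changes was not tested. Pde1a went the other way, with 81.6 CPM in sham and 228, 166 and 173 CPM after injury (1.48, 1.03 and 1.08).

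Glial and vascular nuclei were therefore also summed without those that held at least 2 UMIs and 0.1% of their UMIs from 15 glutamatergic and striatal markers that are not transcription factors, a choice made after seeing the data. In sham, 18 of 146 astrocyte-like nuclei met this, and they held 15.7% of the UMIs of the class, 53.5% of its Pde10a UMIs and 40 of its 80 Adcy5 UMIs. Without them, 1 of 9 members was called at day 1 (13.7% of all genes), 1 of 11 at day 3 (8.39%) and 1 of 8 at day 7 (12.6%). Pde10a stood at -0.02 on day 1 and stayed called at day 3 (-0.92) and day 7 (-0.66). Pde1a stayed called at day 1 (0.94) and stood at 0.56 and -0.31 on days 3 and 7. Adcy5 stood at -0.52 on day 1 and kept its fold on day 3 (-0.81), where under 100 UMIs were left for a call. Pde7b stood at -0.46 and -0.52 on days 1 and 3 and Adcy2 at -0.46 on day 1.

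Microglia-like nuclei had the most calls, all lower, with 5 of 10 members at day 1 (18.7% of all genes), 6 of 10 at day 3 (25.6%) and 3 of 9 at day 7 (19.3%). The median log2 ratio of the members was -0.46, -0.92 and -0.33, against -0.02, 0.07 and 0.04 over all genes. Pde10a measured 827 CPM in sham, 516 at day 1, 379 at day 3 and 193 at day 7 (-2.10 at day 7, -2.53 to -1.69). Pde8b measured 281, 136, 89.7 and 183 CPM (-1.65 at day 3, -2.204 to -1.11), Pde7b 281, 225, 147 and 114 CPM, Pde1a 507, 334, 212 and 389 CPM, and Adcy2 207, 126, 106 and 88.5 CPM. Pde4b, which microglia are known to express, measured 1147, 1274, 612 and 911 CPM (-0.91 at day 3, -1.13 to -0.68, and -0.39 with clusters weighted as in sham). Macrophage markers summed to 67.8, 82.7, 271 and 247 CPM in the class and endothelial markers to 61.4, 66.2, 259 and 60.1 CPM. Mitochondrial UMIs made up 0.52%, 0.56%, 1.46% and 0.48%, and expected free UMIs 9.22%, 6.88%, 14.5% and 9.77%. The endothelial sum and both shares were highest at day 3, and their part in the Pde4b value was not tested. Pde3b was called at day 1 (-0.65, -0.93 to -0.37, but -0.12 among nuclei with at least 2000 UMIs), with log2 ratios of 0.07 and -0.09 on days 3 and 7.

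Most of these calls were of genes whose UMIs in the sham class came mainly from nuclei that also held neuronal markers. Such nuclei numbered 23 of 93 in sham, 12 of 48 at day 1, 46 of 191 at day 3 and 15 of 96 at day 7, and they held 48.8%, 35.5%, 30.8% and 31.6% of the UMIs of the class. In sham they held 92.2% of the Adcy2 UMIs, 83.2% of Pde10a, 82.8% of Pde7b, 72.4% of Pde8b and 65.6% of Pde1a, but 31.9% of Pde3b and 30.4% of Adcy7. One nucleus alone held 99 of the 256 Pde10a UMIs in sham. The summed CPM of the glutamatergic markers in the class was 1149.9 in sham, 784 at day 1, 643 at day 3 and 996 at day 7, and that of the striatal markers was 1253, 1257, 902 and 636. Of the 12 glutamatergic markers 0 were at 0 in any library, and of the 15 striatal markers 2, 1, 1 and 3 were. The part of neuronal RNA in the lower values was not tested. Without these nuclei, 1 of 3 members was called at day 1 (30.9% of all genes), 2 of 5 at day 3 (18.7%) and 1 of 4 at day 7 (14.1%). The median log2 ratio of the members still compared was -0.43, -0.21 and -0.42, against -0.07, 0.02 and -0.01 over all genes. The calls then were Pde3b at day 1 (-0.68, with the limit of depth given above) and Pde4b (-1.11) and Pde1a (-1.27) at day 3, while Pde4d was the member called at day 7. Other folds that passed 1.5 without a call, for want of 100 UMIs, were lower for Pde1a at day 1 (-1.41) and Pde8b at day 3 (-0.98), and higher for Adcy2 at days 1 and 3 (0.97 and 0.75) and Pde7b at day 7 (0.69). Pde10a then stood at -0.23, 0.02 and -0.55 on days 1, 3 and 7, Pde8b at -0.13 and 0.22 on days 1 and 7, and Pde7b at 0.24 on day 3.

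**Figure D5:**
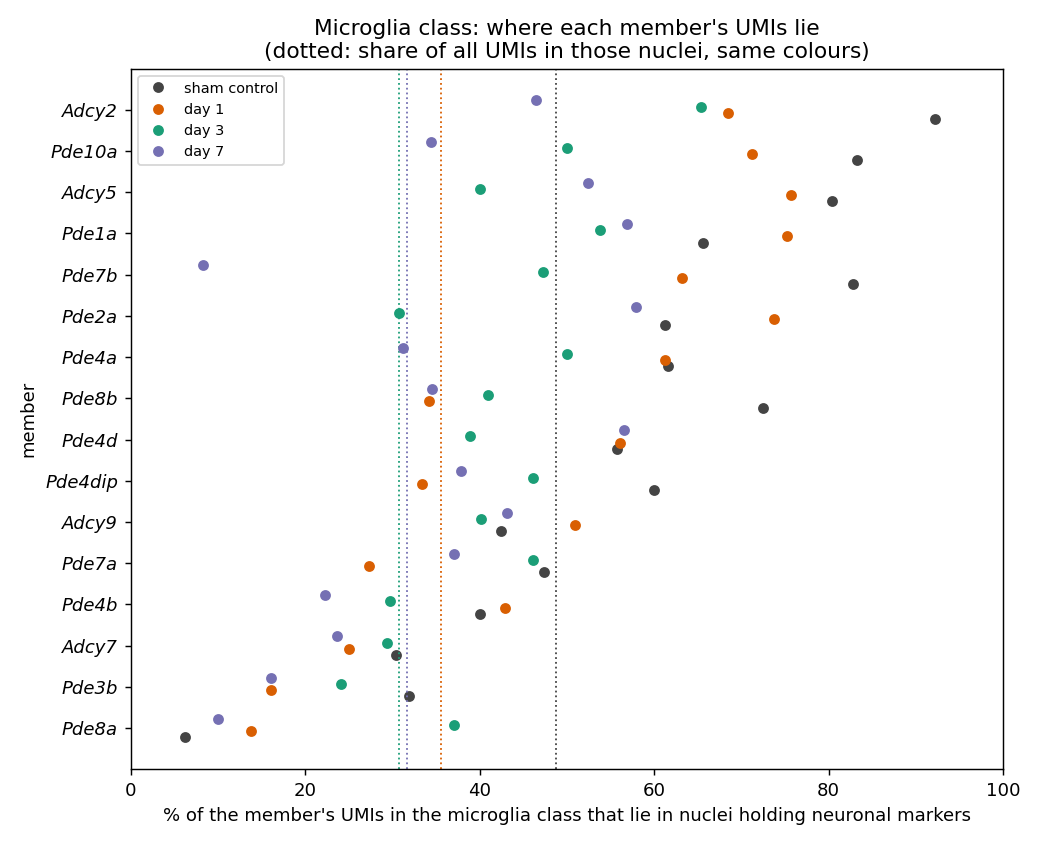
Share of each member's UMIs in the microglia-like class that lay in nuclei holding neuronal markers (horizontal axis, percent) for the members listed (vertical axis), by library (color). Vertical lines give the share of all UMIs of the class in such nuclei. In sham, Adcy2 (92.2%) and Pde10a (83.2%) lie to the right of the line at 48.8%, and Pde3b (31.9%) to its left.

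In vessels and meninges only day 3 could be compared. Endothelial-like nuclei held 2 calls of 7 (19.7% of all genes), Pde4b at 159 against 319 CPM (1.00, 0.39 to 1.67) and Pde10a at 147 against 293 CPM (0.99, 0.35 to 1.69). Without nuclei holding neuronal markers, which were 1 of 41 in sham and 10 of 70 at day 3, these stood at 0.63 and -0.27. From sham to day 3, mural cell markers in the class went from 5880.3 to 3433 CPM, astrocyte markers from 3360.2 to 1594 CPM and glutamatergic markers from 172 to 395 CPM, and their part was not tested. Fibroblast-like nuclei held 1 call of 4 (36.4% of all genes), Pde8b at 894 against 553 CPM (-0.69, -1.14 to -0.24). In this class the mural cell markers were also lower, at 3139 in sham and 1819 CPM at day 3, the fibroblast markers stood at 4774 and 6622 CPM, and the astrocyte markers at 4597 and 4317 CPM. Their part in the Pde8b value was not tested.

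The other genes of cyclic nucleotide signaling, a list of 92 from receptors to responsive genes, gave 774 comparisons by the same rule, with 22 called higher and 42 lower. That was 8.27% of them, against 7.01% of all gene comparisons, and the roles were spread unevenly over classes and days, whose own shares differed. By role, the cAMP-responsive genes were called higher in 1 and lower in 12 of 39 comparisons, protein kinase A subunits and inhibitors in 0 and 3 of 123, anchoring proteins of that kinase in 9 and 5 of 173, and G protein alpha subunits in 3 and 5 of 113. Guanylyl cyclases, nitric oxide synthases and cGMP kinases were called in 5 and 8 of 84, receptors and ligand in 2 and 4 of 49, and CREB family genes in 1 and 1 of 96. Epac proteins were called in 0 and 2 of 28, binding channels and Popeye proteins in 1 and 2 of 35, and exporters in 0 and 0 of 34.

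In the glutamatergic class, 4 of 59 list genes were called at day 1 (5.57% of all genes), 4 of 59 at day 3 (3.56%) and 8 of 58 at day 7 (6.36%). The lower calls were genes that cAMP and neuronal activity induce. Per1, a clock gene with a CREB-driven promoter, measured 40.4 CPM in sham, 34.3 at day 1, 20.5 at day 3 and 13.5 at day 7 (-1.58 at day 7, -1.98 to -1.20). The nuclear receptor Nr4a1 measured 19.4, 9.45, 10.6 and 8.25 CPM, with all injured libraries below the interval of sham. Nr4a3 was lower at day 3 (-1.35) and day 7 (-1.56), Nr4a2 at day 1 (-1.02) and day 7 (-0.94), and Bdnf, a neurotrophin, at day 7 (-0.64). Prkg2, a cGMP-dependent kinase, was higher at day 3 (0.63) and day 7 (0.82), and the anchoring protein Akap12 at day 1 (0.76) and day 7 (0.72).

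In the striatal class, Htr4, a serotonin receptor that activates adenylyl cyclase, was lower at day 1 (148 against 94.4 CPM, -0.65, -0.90 to -0.41), and Akap13 was higher at days 1 and 3 (0.71 on both). Rgs2, Gnaz and Per1 were lower at day 7 (-0.68, -0.76 and -0.66). In interneurons, Nos1, the neuronal nitric oxide synthase, measured 25.05 (16.9 to 35.8), 53.5 (40.3 to 69.6), 109 (92.1 to 129) and 104 (84.9 to 126) CPM. Its log2 ratio was 2.13 at day 3 and 2.05 at day 7, and 1 nucleus held 50 of the 105 UMIs of day 7. Without the leading nucleus of each sum the log2 ratios were 2.58 and 1.87. The cluster led by Sst, Npy and Nos1 made up 25 of the 125 interneuron-like nuclei in sham, 12 of 64 at day 1, 40 of 161 at day 3 and 23 of 96 at day 7. Gucy1b3, a subunit of the nitric oxide receptor, was higher at day 1 (0.61).

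Prkg1, the other cGMP-dependent kinase, was lower in Slc17a6 neurons at day 1 (-1.23) and day 7 (-1.27), in oligodendrocyte-like nuclei at days 1 and 7 (-0.72 and -0.63), in astrocyte-like nuclei at day 7 (-0.85) and in microglia-like nuclei at days 1 and 3 (-0.93 and -0.76). Without glial nuclei that held neuronal markers these values were -0.61 and -0.58 in the oligodendrocyte class, -1.64 in the astrocyte class, and -0.09 and 0.25 in the microglia class, so that the calls in the microglia class and that of the oligodendrocyte class at day 7 were lost. In Slc17a6 neurons the receptor gene Htr7 was also lower, at 186 CPM in sham, 92.7 at day 3 and 73.5 at day 7 (-1.002 and -1.34), and Rapgef4, a cAMP-activated exchange factor, at day 1 (-0.93). Gnal, the olfactory and striatal stimulatory G protein, was higher there at days 1 and 7 (0.60 and 0.94). In astrocyte-like nuclei it was lower at day 3 (142 against 51.2 CPM, -1.47), with the striatal marker sum also lower as given above. Without the nuclei that held neuronal markers its log2 ratio was -0.78, from 30 and 38 UMIs, too few for a call. Among anchoring proteins, Akap13 was higher in microglia-like nuclei on all 3 days, at 229 CPM in sham and 354, 443 and 421 CPM after injury (0.63, 0.95 and 0.87), and Akap10 at days 3 and 7 (0.71 and 0.81). Without nuclei that held neuronal markers, Akap13 stood at 0.58, 0.52 and 0.86 and Akap10 at 0.49 and 0.78, past the size of a call at day 7 alone. Rapgef4, Akap6 and Gucy1a2 were lower in that class at day 3 (-0.91, -0.88 and -0.74), and stood at -0.93, -0.91 and -0.31 without those nuclei, each with under 100 UMIs and so not called. Oligodendrocyte-like nuclei had lower Prkacb, a catalytic subunit of protein kinase A (-0.81), and lower Hcn2, a pacemaker channel (-0.78), at day 1.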

How the data were processed

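Nuclei of 4 libraries, each of 3 pooled hemispheres, were profiled in 10x Genomics droplets. The authors mapped reads to GRCm38 and counted exonic and intronic reads against GENCODE vM8, with UMIs collapsed within 1 mismatch. The submitters' processing notes name STAR 2.7.3a and mm10. The deposited values are raw UMI counts for all barcodes, neither normalized nor filtered. From these, nuclei were called with a re-implementation of emptyDrops (1000 UMIs, 10000 draws, FDR 0.001). Doublets were removed at 0.8% per 1000 nuclei. Nuclei were clustered with Seurat 5.3.0 and sctransform 0.4.2 in R 4.3.3 (anchor integration, 30 components, resolution 0.8), with members and list genes left out of the clustering genes.

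Clusters were named from 220 markers of 19 classes, with score rules set during the analysis. Counts were summed per class and library in Python 3.11.15 and scaled to CPM. Intervals are exact Poisson or conditional binomial at 95%. TMM factors from edgeR 4.0.16 served as an alternative scaling only. Sums and calls were tested on Poisson sums simulated from the class means. These hold no variation between nuclei, animals or libraries, so the simulation does not bear on such variation. Gene spans are those of GENCODE vM21 (GRCm38).

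Genes were named where a class led by 2 times with at least 20 UMIs, where a member passed 1.5-fold with at least 100 UMIs, or where it was highest per kb, and up to 5 list genes per class and day. There were 0 columns of no sample. Of the alternatives, 11 were listed and 2 added after seeing the data. Members and lists were chosen with earlier results of these data known. A protein motif search that had been planned was not run.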

Additional observations from a re-analysis of the deposited data

Results flagged for a closer look

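For 6 members, classes moved past 1.5-fold in opposite directions on the same day. With 1 library per group the difference was not tested, and each is given as the log2 ratio in the class where the member was higher minus that where it was lower. For Pde10a it was 2.27 at day 3 (endothelial-like 0.99, astrocyte-like -1.28) and 2.72 at day 7 (Slc17a6 neurons 0.62, microglia-like -2.10). For Pde1a it was 2.44 at day 1 (precursor-like 1.84, microglia-like -0.60) and 2.67 at day 3 (oligodendrocyte-like 1.41, microglia-like -1.26). For Pde11a it was 1.38 at day 3 (Baiap3 neurons 0.79, striatal -0.60) and 1.53 at day 7 (Baiap3 neurons 0.80, interneurons -0.73). It was 2.02 for Pde7b at day 7 (Slc17a6 neurons 0.72, microglia-like -1.30), 1.91 for Pde4b at day 3 (endothelial-like 1.00, microglia-like -0.91) and 1.90 for Adcy2 at day 3 (oligodendrocyte-like 0.94, microglia-like -0.96). Without glial and vascular nuclei that held neuronal markers, the microglia-like values were 0.69 for Pde7b at day 7 and 0.75 for Adcy2 at day 3, and the endothelial-like value of Pde10a was -0.27. The microglia-like value of Pde10a at day 7 was then -0.55 and the oligodendrocyte-like value of Pde1a at day 3 was 0.60.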

How the results depend on the processing

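No paired analysis was possible because each group was 1 library, and for the same reason no replicate could be left out. Of the 65 calls, 47 kept their direction under every alternative that gave a value for them and 11 stayed past 1.5-fold in all of those. Each call had a value under 8 to 10 alternatives. The 9 class-led members numbered 8 to 12 under the alternatives. Adcy7 was lost in 3 of them, and Pde11a with nuclei thinned to 1000 UMIs. The cause of the differences below was not tested, except that thinning leaves fewer UMIs and the floor and fold change the rule itself.

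The 65 calls became 16 with thinned nuclei, 41 with the mean of nuclei, 169 with a floor of 30 UMIs and 17 at 2-fold. By class, the glutamatergic count of 6 became 14 with the floor of 30 and 1 at 2-fold. The striatal count of 3 became 1 when thinned, with 2 times the doublet share removed, with TMM scaling and at 2-fold, and 9 with the floor of 30. The interneuron count of 6 became 0 when thinned, 1 with the mean of nuclei, 14 with the floor of 30 and 1 at 2-fold. For Baiap3 neurons 5 became 0 when thinned, 12 with the floor of 30 and 0 at 2-fold, and for Slc17a6 neurons 6 became 1, 16 and 0. The astrocyte count of 11 became 2 when thinned, 5 with the mean of nuclei, 24 with the floor of 30, 4 at 2-fold and 3 without nuclei holding neuronal markers. The oligodendrocyte count of 5 became 0 when thinned, 20 with the floor of 30 and 2 at 2-fold. The precursor count of 6 became 1 when thinned, 3 with more doublets removed, 22 with the floor of 30 and 1 at 2-fold. The microglia count of 14 became 8 with libraries merged, 4 when thinned, 4 with the mean of nuclei, 28 with the floor of 30, 6 at 2-fold and 4 without nuclei holding neuronal markers. The endothelial count of 2 became 0 when thinned, 6 with the floor of 30, and 1 with the mean of nuclei, at 2-fold and without nuclei holding neuronal markers. The fibroblast count of 1 became 0 when thinned, with TMM scaling and at 2-fold, and 4 with the floor of 30.

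The sign of the log2 ratio turned 24 times. Thinned sums held fewer UMIs, and no interval is given for their values. With thinned nuclei it was -0.77 for Adcy10 in glutamatergic neurons at day 1, 0.58 for Adcy2 in the striatal class at day 7, 0.16 for Pde7b in interneurons at day 1, 0.77 for Adcy5 in astrocytes at day 1, -0.0595 and -0.68 for Pde1a in astrocytes at days 3 and 7, -0.0262 for Pde1a in precursors at day 7, 0.081 for Pde10a in microglia at day 3, 0.59 for Pde8b in microglia at day 7 and -0.36 for Pde4b in endothelium at day 3. With the mean of nuclei it was 0.10 for Adcy5 in astrocytes at day 1, 0.0693 for Pde1a in microglia at day 1 and 0.17 for Pde8b in microglia at day 7. With libraries merged it was 0.0926 for Pde7b in microglia at day 3. Without nuclei holding neuronal markers it was -0.31 for Pde1a in astrocytes at day 7, 0.013 and 0.00614 for Pde10a in precursors at days 1 and 3, 0.97 and 0.75 for Adcy2 in microglia at days 1 and 3, 0.24 and 0.69 for Pde7b in microglia at days 3 and 7, 0.0157 for Pde10a in microglia at day 3, 0.22 for Pde8b in microglia at day 7 and -0.27 for Pde10a in endothelium at day 3.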
